A study of Mus musculus with 5 samples.

Results

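Gene expression in the mouse caudate putamen 3 days after an ischaemic stroke was compared with sham tissue across the transcriptome. The comparison sets 1 RNA library against another: 2 of the 5 libraries of the series. Genes were taken from all 19221 rows of the deposited table, and the 12783 genes with at least 1 RPKM (reads per kilobase of gene length, scaled to the reads of the library) in at least 1 of the 5 libraries were analysed. The stroke was made by photothrombosis in male C57BL/6 mice of 9 weeks. The dye rose bengal was injected at 100 mg/kg and a laser of 532 nm and 30 mW lit the striatum for 2 min through a fibre placed 3 mm below the dura, which clots the blood in lit vessels. Focal tissue of 6 mice was punched at day 3 and mixed into 1 library of total RNA. The sham library came from the side on which the same fibre and light were applied before the dye was given, and the sources used here give neither how many mice it holds nor how long after the procedure it was taken, so sham is not known to match day 3 in time. Both groups therefore carry the needle track, the light and the dye. The other 3 libraries were taken 4 hours, 1 day and 10 days after stroke and use the same sham library. With 1 library a side there is no replicate check and no test: every difference below describes these libraries.

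The caudate putamen is the input nucleus of the basal ganglia, and most of its neurons are medium spiny neurons, GABA-releasing projection cells. After an infarct, dying cells and myelin are taken up by phagocytes, which are resident microglia and macrophages that enter from the blood, and digested in their lysosomes. Glia and vessel cells around the dead tissue divide, and astrocytes build a border rich in intermediate filaments.

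The read total by which the RPKM were scaled, recovered from the steps in the deposited values, was 44924654 for sham and 42261788 for day 3. Reads summed over the genes of the table came to more, 46018782 and 43546973, and the cause of that gap was not tested. A single read on 2 kb of exon adds 0.0111 RPKM in the sham and 0.0118 RPKM in the day 3 library. Loci that carry ribosomal RNA took 41.2% of the reads on genes in sham and 28.8% at day 3, and the mitochondrial genome took 3.98% and 4.18%. Because every RPKM is scaled by the whole library, these shares bear on every fold. The striatal label was matched by the tissue's defining markers: Ppp1r1b, the gene of DARPP-32, had 1019 RPKM in sham and 657 at day 3 (log2 fold -0.63), and the enkephalin gene Penk had 432 RPKM in sham and 474 at day 3 (log2 fold 0.13). Differences are given as log2((day 3 RPKM + 1) / (sham RPKM + 1)), written log2 fold below, which makes differences look smaller in genes of low level. Where a ratio is given, it is the plain ratio of RPKM with a 95% interval for counting error only, since copied reads are not independent molecules.

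A 2-fold limit was passed upwards at day 3 by 1156 of the 12783 genes (9.04%) and downwards by 79 (0.618%). The median log2 fold over all genes was 0.12. At 4-fold there were 228 higher genes and 1 lower, and at 8-fold 47 higher and 1 lower. That 1 lower gene was Gm24187, a short locus annotated as a microRNA and named here after its values were seen. Among genes with their values nearest the limit, Trappc6a (log2 fold 1.0002) was just inside on the high side and Grtp1 (0.9996) just outside. On the low side Enc1 (-1.0076) was just inside and Cplx2 (-0.9956) just outside. The split between higher and lower genes depends on the scaling. Of the 10076 protein coding genes outside the mitochondrial genome, 871 were past the limit upwards and 41 downwards, with a median of 0.09. When these genes were rescaled to an equal RPKM total, 450 passed upwards and 356 downwards, and their median was -0.23. List medians below are therefore to be read against 0.12, and the share of a list that was higher against 9.04%. The floor of 1 RPKM was passed at day 3 alone by 231 of the genes, and such genes had to be higher there: 79 of the 1156 are of that kind, while 816 had at least 1 RPKM in sham. Listed genes below 1 RPKM in sham entered through a stroke library. A list count or median that holds such genes is a description only.

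**Figure D1:**
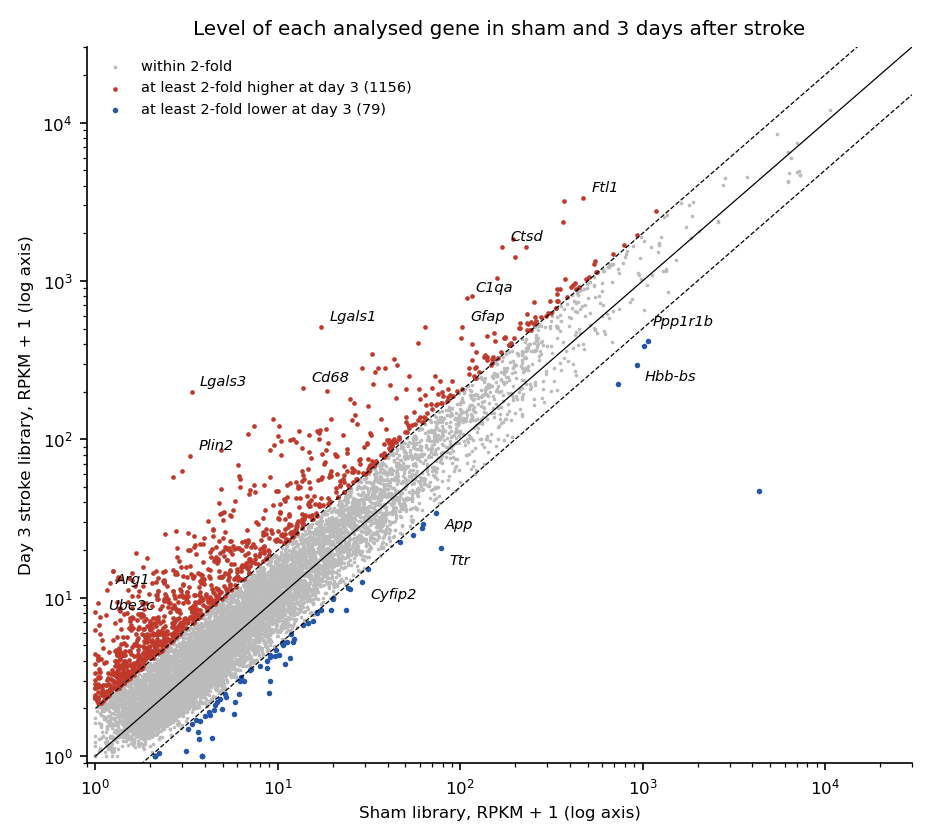
Level of every analysed gene in the sham library (horizontal axis) and the day 3 library (vertical axis), both as RPKM + 1 on log axes, with 1 point a gene, a solid line at equal levels and dashed lines at 2-fold. The 1156 red points above the upper dashed line outnumber the 79 blue points below the lower one, and Lgals3 and Lgals1 lie farthest above the line of the genes named.

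Of the 1156 genes that were higher at day 3, 944 (81.7%) had their highest level of the 5 libraries at day 3, 140 (12.1%) at day 10, 54 at day 1 and 18 at 4 hours. The same 2-fold limit against sham was passed at day 10 by 429 of them (37.1%), at day 1 by 181 (15.7%) and at 4 hours by 35, and 596 (51.6%) passed it at day 3 alone. The choice of these genes by their day 3 level favours a highest level there, so the same counts were made at each time from the genes higher at that time. The share with its highest level at its own time was 87.9% of 281 genes at 4 hours, 66.2% of 426 at day 1 and 45.1% of 537 at day 10, and the share past the limit at that time alone was 75.8%, 48.8% and 18.6%. Both shares at day 3 were below those at 4 hours and above those at day 1 and day 10. All 4 times share the sham library, so these counts are not independent. Of the 79 lower genes, 55 had their lowest level at day 3 and 24 were past the limit at day 1 as well.

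Genes of activated phagocytes had some of the largest differences. Galectin genes led: Lgals3, whose product binds glycans on damaged lysosomes and debris, had 2.37 RPKM in sham, then 0.679 (4 hours), 28.1 (day 1), 198 (day 3) and 38.5 (day 10). The day 3 level was 83.3 times the sham level (interval 68.4 to 103) and the next highest library was day 10. Lgals1, the gene of a smaller galectin, had 16.3 RPKM in sham, then 9.14 (4 hours), 44.98 (day 1), 509 (day 3) and 78.8 (day 10). Capg, which caps actin filaments in macrophages, had 1.65 RPKM in sham and 56.4 at day 3 (log2 fold 4.44), and Spp1, the gene of the secreted matrix protein osteopontin, had 1.97 RPKM in sham and 62.2 at day 3 (log2 fold 4.41), with 18.8% of its exons shared with the predicted gene Gm42793. Of the 20 genes of the activated phagocyte list, 15 were at least 2-fold higher, 0 were lower, and the median log2 fold was 2.12. Gpnmb, a glycoprotein of the lysosomal pathway, had 0.677 RPKM in sham and 18.1 at day 3 (log2 fold 3.51), or 26.8 times the sham level (interval 21.9 to 33.1), and was higher still at day 10 (25.1 RPKM). Apoe stood apart from the list by its small difference: 952 RPKM in sham, 1096 at day 3 and 4442 at day 10.

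Receptors by which phagocytes recognise debris were higher in part. Trem2, a lipid-sensing receptor, had 6.52 RPKM in sham, then 4.43 (4 hours), 2.94 (day 1), 45.8 (day 3) and 73.2 (day 10), and its signalling adaptor Tyrobp had 43.9 RPKM in sham and 293 at day 3 (log2 fold 2.71). Stab1, a scavenger receptor, had 1.04 RPKM in sham and 11.5 at day 3 (log2 fold 2.61), or 11.1 times the sham level (interval 9.699 to 12.7). Of 11 scavenger and phagocytic receptors analysed, 4 were at least 2-fold higher, with a median of 0.78, and Tyro3, a receptor for the eat-me bridge protein Gas6, was at the other end (sham 15.8, day 3 12.1 RPKM). Fc receptors, which bind antibody, and their signalling genes were higher more often: 13 of 16, with a median of 1.51. Fcer1g, the shared signalling chain, had 15.99 RPKM in sham and 114 at day 3 (log2 fold 2.76), Fcgr4 had 2.73 RPKM in sham and 20.8 at day 3 (log2 fold 2.55), and the phosphatase gene Ptpn6 had 2.03 RPKM in sham and 12.7 at day 3 (log2 fold 2.18). All 16 had a log2 fold above 0, but only 9 of them reached 1 RPKM in sham. These 9 were all at least 2-fold higher (median 1.87), and the rest entered through a stroke library.

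Complement, which tags debris for uptake, was led by the 3 chains of C1q. C1qa had 108 RPKM in sham, then 80.1 (4 hours), 91.3 (day 1), 780.1 (day 3) and 1044 (day 10). C1qb had 115 RPKM in sham and 798 at day 3 (log2 fold 2.78) and C1qc had 63.1 RPKM in sham and 512 at day 3 (log2 fold 3.00). Their ratios lay close together, at 7.25, 6.92 and 8.11. The anaphylatoxin receptor genes C5ar1 and C3ar1 were at 8.38 times the sham level (interval 6.56 to 11.01) and 8.02 times the sham level (interval 6.38 to 10.3), and Itgb2, the beta chain of complement receptor 3, had 1.66 RPKM in sham and 13.9 at day 3 (log2 fold 2.49). In the list 10 of 16 genes passed the limit upwards and 0 downwards, with a median of 1.39. Clu, a soluble inhibitor that astrocytes make, was high in both libraries (sham 167, day 3 238 RPKM). The 5 subunit genes of the phagocyte NADPH oxidase past the limit included Cyba (8.06 RPKM in sham and 84.9 at day 3, log2 fold 3.25) and the small GTPase gene Rac2 (1.39 RPKM in sham and 11.6 at day 3, log2 fold 2.40), of 6 analysed, with a median of 1.80. The catalytic subunit gene Cybb stayed below 1 RPKM in every library.

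Lysosomal proteases were higher at day 3 while the proton pump of the lysosome was not. Ctsd, the gene of cathepsin D, had 169 RPKM in sham, then 175 (4 hours), 122 (day 1), 1631 (day 3) and 1489.6 (day 10), and its day 3 level was 9.68 times the sham level (interval 9.47 to 9.89). A share of 34.4% of its exons is shared with the predicted gene Gm49369. Ctsz had 34.5 RPKM in sham and 283 at day 3 (log2 fold 3.00), Lgmn, the gene of the asparaginyl protease legumain, had 23.8 RPKM in sham and 178 at day 3 (log2 fold 2.85), and Ctsb had 49.4 RPKM in sham and 206 at day 3 (log2 fold 2.04). Of 16 cathepsins and cystatins, 11 were at least 2-fold higher (median 1.88). Cst3, the cystatin C gene, had 1733 RPKM in sham and 2192 at day 3 (log2 fold 0.34), a smaller difference than those 4 genes had. Among 31 hydrolases of lipids, sugars and disulfides 15 were at least 2-fold higher (median 0.92). Ifi30, a thiol reductase used in antigen processing and annotated here as a processed transcript, had 3.88 RPKM in sham and 84.1 at day 3 (log2 fold 4.12), or 21.7 times the sham level (interval 17.5 to 27.4). Hexa, which helps degrade gangliosides, had 11.9 RPKM in sham and 48.5 at day 3 (log2 fold 1.93), while Pld3 had 192 RPKM in sham and 190.5 at day 3 (log2 fold -0.01). Of 17 genes of the lysosomal membrane 4 were at least 2-fold higher (median 0.61), and they were Cd68 (12.8 RPKM in sham and 211 at day 3, log2 fold 3.94), Cd63 (25.5 RPKM in sham and 142 at day 3, log2 fold 2.44), Laptm5 and Slc11a1. Lamp1, a structural membrane protein, had 41.3 RPKM in sham and 79.6 at day 3 (log2 fold 0.93). The 18 subunit genes of the V-ATPase had a median of 0.05, and the sign of that median turned under median-of-ratios scaling (-0.075). Atp6v0e alone was past the limit (sham 10.6, day 3 32.7 RPKM).

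The letters TCACGTG are the core of the element bound by the transcription factor TFEB and its relatives at lysosomal genes. These letters were searched on both strands in RefSeq promoters of build GRCm38.p6, from 250 bases before to 50 after the annotated start, for the cathepsin, hydrolase, membrane and V-ATPase lists together. Of 87 listed genes 69 had a promoter entry and 17 of them (24.6%) held the letters, against 4.29% of all 27025 genes with an entry. Among genes at least 2-fold higher at day 3 it was 8 of 24 (33.3%), and among the other analysed genes 9 of 42 (21.4%). Tfeb itself had 1.85 RPKM in sham and 3.33 at day 3 (log2 fold 0.60). The 4 higher genes of largest fold that hold the letters within 200 bases before and 30 after the start are shown to let the element be seen beside the values above, with the element in capitals and the start 30 bases before the end of each line. A match is a description of letters and not evidence of binding.
Ifi30, chr8:70766634-70766863 on the minus strand: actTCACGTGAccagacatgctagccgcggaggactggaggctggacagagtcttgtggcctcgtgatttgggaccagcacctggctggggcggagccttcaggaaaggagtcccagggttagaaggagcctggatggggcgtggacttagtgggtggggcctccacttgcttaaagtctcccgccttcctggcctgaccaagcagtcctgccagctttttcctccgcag
Ctsd, chr7:142387798-142388027 on the minus strand: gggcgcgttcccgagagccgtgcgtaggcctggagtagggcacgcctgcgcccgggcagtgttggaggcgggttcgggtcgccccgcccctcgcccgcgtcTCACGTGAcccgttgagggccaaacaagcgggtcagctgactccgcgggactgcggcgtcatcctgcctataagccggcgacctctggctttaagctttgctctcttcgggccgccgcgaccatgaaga
Lgmn, chr12:102439063-102439292 on the minus strand: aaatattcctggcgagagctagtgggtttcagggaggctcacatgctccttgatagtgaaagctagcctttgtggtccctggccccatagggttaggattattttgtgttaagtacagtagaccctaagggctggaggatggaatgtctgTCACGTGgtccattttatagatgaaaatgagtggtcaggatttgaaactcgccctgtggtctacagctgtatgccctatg
Naglu, chr11:101069894-101070123 on the plus strand: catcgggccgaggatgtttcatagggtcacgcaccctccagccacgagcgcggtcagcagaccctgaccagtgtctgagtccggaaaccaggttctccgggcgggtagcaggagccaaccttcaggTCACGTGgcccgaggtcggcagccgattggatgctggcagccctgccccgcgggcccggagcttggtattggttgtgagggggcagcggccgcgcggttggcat
In Ifi30 and Ctsd the element continues into its own mirror image, so both strands match and the capitals run 1 base longer.

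Differences among lipid genes were uneven, with Plin2 far above the others. Plin2, which coats lipid droplets, had 2.31 RPKM in sham and 77.4 at day 3 (log2 fold 4.57), or 33.5 times the sham level (interval 28.9 to 39.1). Hilpda, an inhibitor of droplet lipolysis, had 4.16 RPKM in sham and 24.8 at day 3 (log2 fold 2.32), and Plin3 had 6.49 RPKM in sham and 16.7 at day 3 (log2 fold 1.24). Ch25h, which makes an oxysterol, had 1.65 RPKM in sham and 9.97 at day 3 (log2 fold 2.05), and the fatty acid binding protein gene Fabp5 had 37.3 RPKM in sham and 91.9 at day 3 (log2 fold 1.28). Dgat2, which makes the triglyceride of droplets, had 26.7 RPKM in sham and 19.2 at day 3 (log2 fold -0.46). Of 21 genes of droplets, lipoproteins and efflux, 7 were at least 2-fold higher and the median was 0.54. By day 10 Plin2 was at 14.4 RPKM and Hilpda at 5.57. Apoc2, a lipoprotein cofactor, was at 0.356 RPKM in sham, 12.3 at day 3 (log2 fold 3.30) and 17.6 at day 10, but 79.5% of its exons overlap the gene Gm44805.

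**Figure D2:**
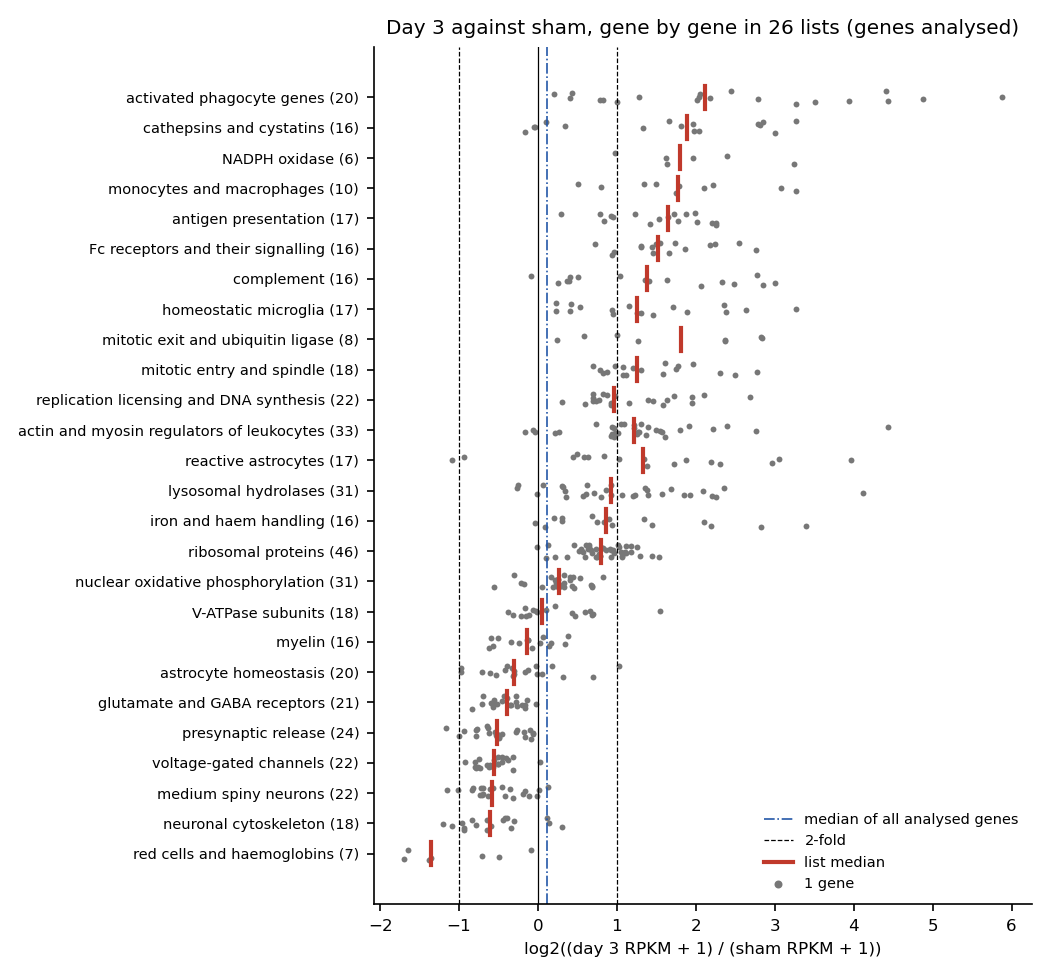
Log2 fold of day 3 against sham (horizontal axis) for every analysed gene (grey points) of 26 lists (rows, with the number of genes analysed), list medians in red, the median of all genes as a blue dash-dotted line and 2-fold as dashed lines. The medians of the phagocyte, cell division and antigen presentation lists lie to the right of the blue line, and those of the 5 neuronal lists drawn and of the haemoglobins to its left.

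Markers of resident microglia and of macrophages were both higher. Of 17 homeostatic microglia genes, 10 were at least 2-fold higher, 0 were lower and all 17 had a log2 fold above 0 (median 1.26). Of the 13 that reached 1 RPKM in sham 9 were higher (median 1.46). Fcrls had 8.54 RPKM in sham and 90.7 at day 3 (log2 fold 3.27), and Tmem119, a marker of resident microglia, had 14.01 RPKM in sham, then 3.98 (day 1), 48.1 (day 3) and 46.2 (day 10). The day 3 level of Tmem119 was thus above sham, while day 1 was below it. Csf1r, the receptor for the growth factor of microglia and macrophages, had 14.2 RPKM in sham and 40.6 at day 3 (log2 fold 1.46), while the fractalkine receptor gene Cx3cr1 had 2.81 RPKM in sham and 4.04 at day 3 (log2 fold 0.41). Of 20 genes of monocytes and macrophages 10 were analysed and 8 were at least 2-fold higher (median 1.77). Only 3 of the 10 reached 1 RPKM in sham, and 2 of these 3 were higher (median 1.49). The rest entered the count through a stroke library, so the count of 8 is a description only. Arg1, an arginase of wound macrophages, had 0.160 RPKM in sham, then 0.0195 (4 hours), 1.37 (day 1), 10.2 (day 3) and 0.0841 (day 10). Day 3 was the highest library, and day 1 was also past the 2-fold limit against sham. The lysozyme gene Lyz2 had 10.7 RPKM in sham and 97.9 at day 3 (log2 fold 3.08), and Adgre1, the gene of F4/80, had 0.597 RPKM in sham and 6.45 at day 3 (log2 fold 2.22). Ccr2, Mrc1 and Cd163, which mark blood monocytes and perivascular macrophages, stayed below 1 RPKM in all 5 libraries. How much of the phagocyte genes comes from either cell type was not tested, and in pooled tissue more cells of a type and more RNA per cell cannot be told apart.

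The transcription factors that specify these cells were higher in part, at 6 of 16 genes (median 0.58). Spi1, the gene of PU.1, had 3.56 RPKM in sham and 19.8 at day 3 (log2 fold 2.19), Irf8 had 1.51 RPKM in sham and 8.38 at day 3 (log2 fold 1.90) and Irf5 had 2.28 RPKM in sham and 10.6 at day 3 (log2 fold 1.83). Cebpb and Cebpa had log2 folds of 1.46 and 1.40. Summed over the list, 42.6 RPKM in sham stood against 121.5 at day 3.

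Many markers of other leukocytes could not be analysed, and among those that could the results were mixed. Neutrophil genes had a median of -0.23 over the 5 of 14 that could be analysed. The alarmin gene S100a9 had 5.501 RPKM in sham, then 3.08 (4 hours), 93.4 (day 1), 4.53 (day 3) and 5.59 (day 10), and S100a8 had 4.65 RPKM in sham, then 2.101 (4 hours), 53.03 (day 1), 3.82 (day 3) and 3.93 (day 10). Both were high at day 1 and below sham at day 3. The 2 past the limit (40%, against 9.04% of all genes) were Lcn2 (sham 10.3, day 3 50.5 RPKM) and Csf3r (sham 1.21, day 3 5.19 RPKM), of which Lcn2 is also in the list of reactive astrocytes and Csf3r in that of cytokine receptors. Of 6 T and NK cell genes analysed 1 was at least 2-fold higher, the granzyme gene Gzma (sham 0.332, day 3 1.98 RPKM). Cd4, a co-receptor of helper T cells, went the other way within the limit (sham 11.7, day 3 6.92 RPKM), and Cd3e and Cd3d stayed below 1 RPKM. Of the 2 B cell genes analysed, of 7 listed, Cd79b was past the limit (sham 0.327, day 3 2.13 RPKM), and of the 3 dendritic cell genes analysed, of 9 listed, Siglech was (sham 1.63, day 3 5.49 RPKM). Siglech is also in the list of homeostatic microglia. The other dendritic cell genes analysed, Itgax and Batf3, were within the limit (log2 folds 0.40 and 0.56).

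In the replication, mitotic entry and mitotic exit lists, 0 genes passed the 2-fold limit at 4 hours, day 1 or day 10. For genes below 1 RPKM both in sham and at such a time this was fixed, since the log2 fold adds 1 RPKM to each level. It therefore does not show that they were level with sham. Ube2c, which feeds ubiquitin to the anaphase-promoting complex, had 0.0599 RPKM in sham, then 0.134 (4 hours), 0.174 (day 1), 6.598 (day 3) and 0.553 (day 10). Cdk1, the kinase that starts mitosis, had 0.0541, 0.137, 0.118, 4.94 and 0.511 RPKM in the same order, and Cdc20, an activator of the anaphase-promoting complex, had 0.655, 0.676, 0.416, 10.8 and 0.836. In all 3 genes the day 3 library was highest and day 10 was the next, with plain RPKM above sham. Sham counts were low, so the ratios are wide: Ube2c had 7 reads in sham and 725 at day 3, which is 110.1 times the sham level (interval 43.5 to 625), and 22.8% of its exons overlap Tnnc2 on the other strand. Cdk1 had 12 and 1031 reads, or 91.3 times the sham level (interval 41.6 to 249.8). Cdc20, with 55 and 852 reads, had 16.5 times the sham level (interval 11.4 to 25.8).

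Genes of DNA replication and of mitosis were both among those past the limit. Of 22 genes of replication licensing and DNA synthesis, 10 were at least 2-fold higher (median 0.96), led by Tk1 (0.0514 RPKM in sham and 5.76 at day 3, log2 fold 2.69), the thymidine kinase gene, by Rrm2 (0.104 RPKM in sham and 3.78 at day 3, log2 fold 2.11), a subunit of ribonucleotide reductase, and by Mcm5 (1.31 RPKM in sham and 7.899 at day 3, log2 fold 1.95), part of the replicative helicase. Pcna, the sliding clamp gene, had 6.46 RPKM in sham and 15.6 at day 3 (log2 fold 1.15). Of 18 genes of mitotic entry and the spindle 13 were higher (median 1.25), led by Plk1 (0.142 RPKM in sham and 6.83 at day 3, log2 fold 2.78), Ccnb2 (0.0872 RPKM in sham and 4.37 at day 3, log2 fold 2.31) and Birc5 (0.0393 RPKM in sham and 3.05 at day 3, log2 fold 1.96), the survivin gene. Another 18 of the 36 listed stayed below 1 RPKM in every library and are not in the counts. Of 8 genes of mitotic exit 6 were higher (median 1.82), with Cks1b (1.38 RPKM in sham and 11.3 at day 3, log2 fold 2.37) and Cks2 (0.804 RPKM in sham and 8.31 at day 3, log2 fold 2.37). Reaching 1 RPKM at day 3 alone put 17 of the 18 mitotic entry genes, 3 of the 8 mitotic exit genes and 8 of the 22 replication genes into the counts, so these had to be higher at day 3 and the 3 counts and medians are descriptions only. Of the 4 mitotic exit genes that reached 1 RPKM in sham 2 were at least 2-fold higher (median 0.79), and of the 10 such replication genes 3 were (median 0.72). The median was thus lower than over all genes of each list. Of the 18 mitotic entry genes 0 reached 1 RPKM in sham. Replication-dependent histone genes, whose messages lack a poly(A) tail and which form a family of near-identical copies, were higher at 5 of 14 (median 0.78), with Hist1h2ag, which overlaps Gm44486 on the other strand, at 17.3 RPKM in sham and 116 at day 3 (log2 fold 2.67).

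Brakes on the cycle were mixed. Cdkn2c, an inhibitor of CDK4 and CDK6, had 0.572 RPKM in sham and 5.73 at day 3, and its level at day 1 was 0.555 RPKM. Cdkn1a, the p21 gene, had 11.8 RPKM in sham and 24.6 at day 3 (log2 fold 1.00), with higher levels at 4 hours (29.4) and day 1 (28.1). Of 18 inhibitors and p53 targets 4 were at least 2-fold higher, with a median of 0.31 that became -0.02 when protein coding genes were rescaled. The 4 included Bax (sham 19.9, day 3 48.3 RPKM) and Trp53 (sham 3.59, day 3 8.62 RPKM).

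Promoters of mitotic genes often carry the cell cycle homology region, whose letters are TTTGAA or TTCGAA, and CCAAT boxes. Both were searched on both strands in the same RefSeq promoters, where TTCGAA reads alike on both strands and a CCAAT box can share its last base with TTTGAA. Of the 47 mitotic genes 40 had an entry. The homology region letters were in 29 of them (72.5%), against 21.7% of all genes with an entry, and both kinds of letters were in 25 (62.5%), against 8.61%. For the replication list it was 6 of 25 (24%) and 5 of 25 (20%). Among mitotic genes at least 2-fold higher at day 3 both were in 11 of 16 (68.8%), and among those below 1 RPKM in all libraries in 11 of 19 (57.9%). The 4 genes of largest fold with both inside the printed window, 200 bases before to 30 after the start, are shown because they lead the division genes above (in Plk1 the homology region lies past that window), with every homology region and CCAAT box, on either strand, in capitals.
Ube2c, chr2:164769729-164769958 on the plus strand: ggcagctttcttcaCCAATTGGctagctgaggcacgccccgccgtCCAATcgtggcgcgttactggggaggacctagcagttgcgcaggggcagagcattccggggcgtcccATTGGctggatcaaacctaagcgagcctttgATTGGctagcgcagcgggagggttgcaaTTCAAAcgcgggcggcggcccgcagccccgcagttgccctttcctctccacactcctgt
Cdc20, chr4:118437314-118437543 on the minus strand: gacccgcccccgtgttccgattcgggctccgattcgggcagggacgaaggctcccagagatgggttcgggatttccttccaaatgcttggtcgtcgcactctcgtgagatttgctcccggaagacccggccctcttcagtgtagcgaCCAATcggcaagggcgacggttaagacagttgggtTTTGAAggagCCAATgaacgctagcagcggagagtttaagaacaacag
Cdk1, chr10:69352883-69353112 on the minus strand: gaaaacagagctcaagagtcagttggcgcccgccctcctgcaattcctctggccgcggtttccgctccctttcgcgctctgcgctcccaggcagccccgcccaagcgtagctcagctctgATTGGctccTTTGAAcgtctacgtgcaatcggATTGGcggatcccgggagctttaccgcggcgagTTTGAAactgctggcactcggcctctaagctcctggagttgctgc
Cks1b, chr3:89418262-89418491 on the minus strand: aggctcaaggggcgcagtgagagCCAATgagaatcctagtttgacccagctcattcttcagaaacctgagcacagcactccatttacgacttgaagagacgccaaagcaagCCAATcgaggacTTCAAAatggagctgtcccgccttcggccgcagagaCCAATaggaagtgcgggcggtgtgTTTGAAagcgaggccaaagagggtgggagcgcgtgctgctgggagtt
In all 4 a homology region lies shortly before the start, with CCAAT letters upstream of it.

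**Figure D3:**
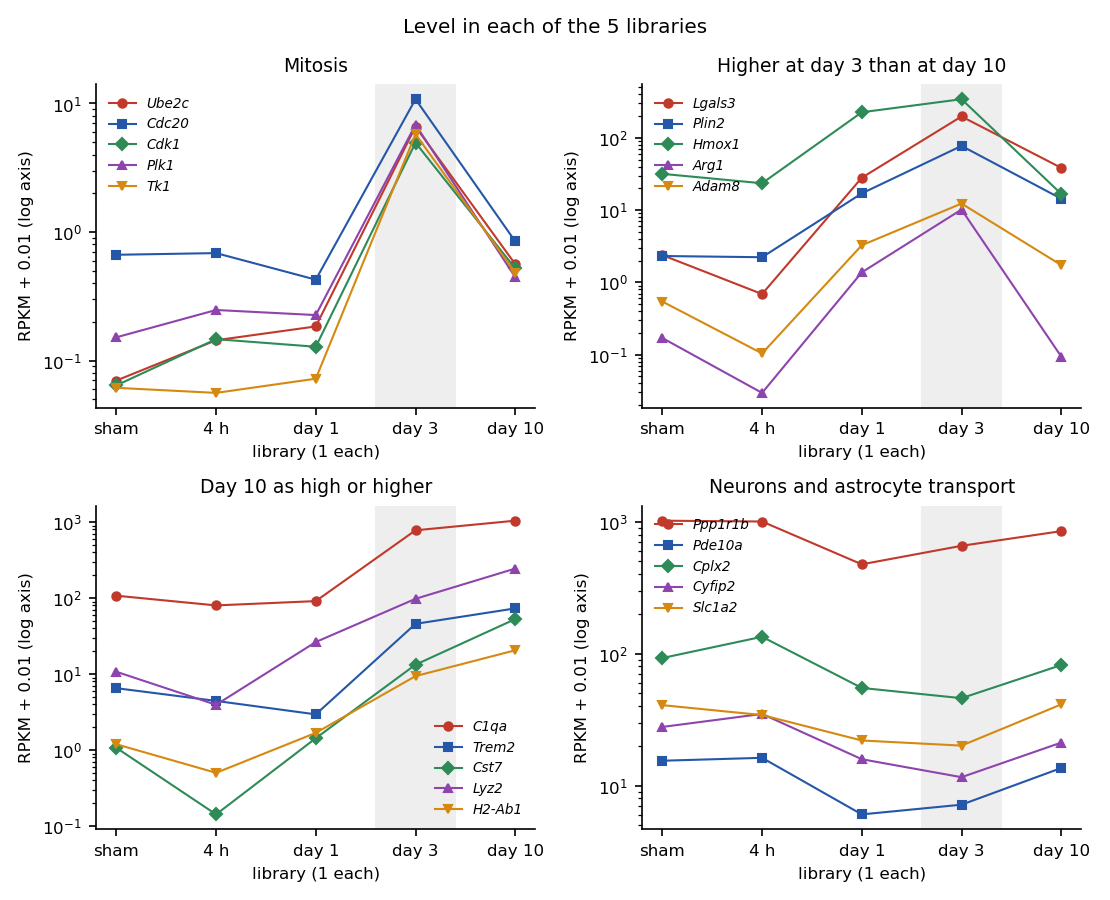
Level of 20 genes (RPKM + 0.01, log axes) in the 5 libraries, 1 library a time, with the day 3 library shaded. The 5 cell division genes are highest at day 3, Lgals3, Plin2, Hmox1, Arg1 and Adam8 are lower again at day 10, C1qa, Trem2, Cst7, Lyz2 and H2-Ab1 are highest at day 10, and the neuronal genes and Slc1a2 are lower at day 1 and day 3 than in sham.

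Antigen presentation genes were higher at 12 of 17 (median 1.65). For class I, B2m, the shared light chain, had 51.3 RPKM in sham and 249 at day 3 (log2 fold 2.26), and the heavy chain gene H2-K1, a member of a family of similar copies, had 26.1 RPKM in sham and 125 at day 3 (log2 fold 2.21). For class II, H2-Ab1 had 1.18 RPKM in sham and 9.395 at day 3 (log2 fold 2.25) and reached 20.6 RPKM at day 10. The immunoproteasome genes Psmb8 and Psmb9, which cut peptides for class I, had log2 folds of 1.99 and 1.53. Interferon response genes were higher at 9 of 21 (median 0.70). Ifi27l2a had 8.37 RPKM in sham and 134 at day 3 (log2 fold 3.85), Bst2, which tethers virions, had 13.8 RPKM in sham and 106 at day 3 (log2 fold 2.84), and Ifitm3 had 42.5 RPKM in sham and 320.4 at day 3 (log2 fold 2.89). Irf7, the transcription factor gene that sustains the response, had 3.73 RPKM in sham and 13.7 at day 3 (log2 fold 1.63). At 4 hours 9 of the same 21 genes were at least 2-fold lower than sham.

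Chemokine genes split by time. Ccl8, a monocyte attractant, had 0.348 RPKM in sham, then 1.18 (day 1), 7.55 (day 3) and 8.36 (day 10), and Cxcl16, which overlaps Zmynd15 on the other strand, had 1.41, 4.31, 13.8 and 17.01 in the same order. Both had lower levels at day 1 than at day 3 and higher ones at day 10. Ccl3, by contrast, had 3.37, 69.1, 10.4 and 9.49 RPKM, and Ccl4 had 3.61, 61.3, 9.32 and 10. Both had their highest level at day 1. Of 19 chemokine genes analysed 8 passed the limit upwards at day 3 and 11 at day 1, with medians of 0.66 and 1.89. Only 12 of the 19 reached 1 RPKM in sham, and 4 of these 12 were higher at day 3 (median 0.23). The rest entered through a stroke library, so the counts of 8 and 11 are descriptions only. Cx3cl1, the neuronal fractalkine gene, had 129.7 RPKM in sham and 99.1 at day 3 (log2 fold -0.38).

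Of 19 genes of cytokines and their receptors 10 were at least 2-fold higher (median 1.00), most of them receptor genes. The tumour necrosis factor receptor genes Tnfrsf1b and Tnfrsf1a had 1.36 RPKM in sham and 11.8 at day 3 (log2 fold 2.44) and 4.97 RPKM in sham and 19.5 at day 3 (log2 fold 1.78). Il4ra, Csf2rb, Il10rb and Il10ra had log2 folds of 1.70, 1.63, 1.45 and 1.32. The receptor genes Il6st and Il1r2 were within the limit, at -0.21 and 0.07. The ligand genes Tnf (sham 0.272, day 3 0.852 RPKM) and Il1b (sham 0.163, day 3 0.199 RPKM) were below 1 RPKM in both libraries, where the log2 fold is small by construction. These 4 were named after their values were seen. Of 11 genes of Toll-like receptors and the inflammasome 7 were higher (median 1.24). Pycard, the adaptor of inflammasomes, had 2.49 RPKM in sham and 19.9 at day 3 (log2 fold 2.58), and Gsdmd, which forms the pore of pyroptosis, had 1.15 RPKM in sham and 6.41 at day 3 (log2 fold 1.78). Another 12 of 23 listed genes were below 1 RPKM in every library or were not analysed here.

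Most reactive astrocyte genes were higher, while homeostatic astrocyte genes stayed within the limit with 1 exception. Gfap, an intermediate filament gene of astrocytes, had 102 RPKM in sham, then 26.3 (4 hours), 272 (day 1), 509 (day 3) and 234 (day 10), so day 3 was 5.004 times the sham level (interval 4.89 to 5.12). In the same class, Vim, the vimentin gene, which macrophages also express, had 5.904 RPKM in sham and 107 at day 3 (log2 fold 3.97). Serpina3n, a secreted protease inhibitor, had 32.98 RPKM in sham and 264 at day 3 (log2 fold 2.96), and Timp1 had 11.1 RPKM in sham and 100.0 at day 3 (log2 fold 3.06). Of 17 reactive genes 10 were at least 2-fold higher (median 1.34), against 13 at day 1 (median 1.56). Ptx3 went the other way, with 2.399 RPKM in sham, 11.1 at day 1 and 0.591 at day 3. Of 20 homeostatic genes Aldh1l1, a folate enzyme that marks astrocytes, was the 1 past the limit (sham 10.1, day 3 21.7 RPKM), and 0 were 2-fold lower, with a median of -0.30. Slc1a2, the main glutamate transporter gene, had 40.7 RPKM in sham and 20.1 at day 3 (log2 fold -0.98), or 0.493 times the sham level (interval 0.478 to 0.509), and the connexin gene Gjb6 had 4.94 RPKM in sham and 2.04 at day 3 (log2 fold -0.97). Of the 20, 15 had a log2 fold below 0 and 5 above, among them the water channel gene Aqp4, with 1.599 RPKM in sham and 3.23 at day 3 (log2 fold 0.70).

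Of 12 coagulation and plasminogen genes 6 were at least 2-fold higher. Metalloproteinase and inhibitor genes were higher at 3 of 16, and collagen and matrix genes at 2 of 15. In the same order 8, 9 and 8 genes reached 1 RPKM in sham. Among those, 3, 1 and 2 were higher, with medians of 0.46, 0.42 and 0.69. The rest entered through a stroke library, so these counts are descriptions only. Plau, the urokinase gene, had 0.508 RPKM in sham and 8.37 at day 3 (log2 fold 2.64), and its receptor gene Plaur had 1.05 RPKM in sham and 5.398 at day 3 (log2 fold 1.64). Anxa2 and S100a10, which together dock plasminogen on cells, had 1.78 RPKM in sham and 25.5 at day 3 (log2 fold 3.25) and 22.99 RPKM in sham and 86.4 at day 3 (log2 fold 1.87). The median of the 12 coagulation and plasminogen genes was 0.88. The metalloproteinase gene Mmp12, a macrophage elastase, had 0.0277 RPKM in sham, then 0.934 (day 1), 3.302 (day 3) and 0.193 (day 10), and Adam8 had 0.533, 3.25, 12.3 and 1.72. Both had their highest level at day 3. The 16 metalloproteinases and inhibitors had a median of 0.48, and 3 were past the limit, these 2 and the inhibitor gene Timp1. Of 15 collagen and matrix genes 2 were, Fn1 (sham 1.65, day 3 6.46 RPKM), the fibronectin gene, and Serpinh1 (sham 6.12, day 3 15.9 RPKM), a collagen chaperone, with a median of 0.52.

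In vessels, Cldn5, a tight junction gene of endothelium, had 22.1 RPKM in sham and 45.7 at day 3 (log2 fold 1.02), and the adhesion genes Icam2 and Icam1 had 1.204 RPKM in sham and 6.26 at day 3 (log2 fold 1.72) and 1.04 RPKM in sham and 3.23 at day 3 (log2 fold 1.06). These were the 3 of 14 endothelial genes past the limit (median 0.55). Among 9 pericyte and smooth muscle genes 3 were past it (median 0.59): Tagln, a contractile protein gene of which 62.4% of exons overlap Gm48529 on the other strand, had 6.44 RPKM in sham and 50.6 at day 3 (log2 fold 2.79), Acta2 had 2.39 RPKM in sham and 6.56 at day 3 (log2 fold 1.16), and Anpep had 0.194 RPKM in sham and 1.57 at day 3 (log2 fold 1.11). Growth factor genes included Igfbp2, which binds insulin-like growth factors, at 9.15 RPKM in sham and 119.8 at day 3 (log2 fold 3.57), the progranulin gene Grn at 12.05 RPKM in sham and 112 at day 3 (log2 fold 3.12), and Tgfb1 with its target Tgfbi at log2 folds of 1.79 and 2.24. In that list 7 of 20 were at least 2-fold higher (median 0.81).

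Genes of iron and haem handling were higher at 6 of 16 (median 0.87). Hmox1, which breaks down haem, had 31.8 RPKM in sham, then 23.5 (4 hours), 226 (day 1), 343 (day 3) and 16.8 (day 10), so day 3 was highest and day 10 was below sham. The ferritin light chain gene Ftl1 had 471 RPKM in sham and 3333 at day 3 (log2 fold 2.82), or 7.07 times the sham level (interval 6.95 to 7.2), and the heavy chain gene Fth1 had 1789.9 RPKM in sham and 3012 at day 3 (log2 fold 0.75). Both have processed copies in the genome, so their reads may be shared, and 26.5% of the exons of Ftl1 overlap Gm10252 on the other strand. Haemoglobin messages were lower in the same library. Hbb-bs had 928 RPKM in sham and 296 at day 3 (log2 fold -1.65) and Hba-a1 had 1018 RPKM in sham and 390.1 at day 3 (log2 fold -1.38). The 4 globin genes, which are near-identical in pairs, were all past the limit, and the 7 genes of the red cell list had a median of -1.36 and a summed level of 3772 RPKM in sham and 1347 at day 3. How much blood the punches held was not measured, and its part in these values was not tested.

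Of 25 antioxidant genes 6 were at least 2-fold higher (median 0.66), among them the peroxiredoxin and glutathione peroxidase genes Prdx6 (31.2 RPKM in sham and 108 at day 3, log2 fold 1.76) and Gpx1 (139.8 RPKM in sham and 448 at day 3, log2 fold 1.67) and the metal-binding Mt2 (404 RPKM in sham and 909.7 at day 3, log2 fold 1.17, with 2372 at day 1), although 73.5% of the exons of Mt2 overlap Gm45774 on the other strand. Among 24 heat shock and unfolded protein genes 4 were past the limit (median 0.65), led by Atf3 (sham 0.961, day 3 9.49 RPKM, with 16.4 at day 1) and Sdf2l1 (sham 10.6, day 3 52.2 RPKM), a chaperone of the endoplasmic reticulum. Genes of glucose use were higher at 8 of 25 (median 0.72): the lactate exporter gene Slc16a3 had 0.820 RPKM in sham and 14.7 at day 3 (log2 fold 3.11), the hexokinase gene Hk3 of myeloid cells had 0.586 RPKM in sham and 11.9 at day 3 (log2 fold 3.02), Pgd of the pentose phosphate path had 2.76 RPKM in sham and 11.7 at day 3 (log2 fold 1.75) and Ldha had 63.3 RPKM in sham and 189 at day 3 (log2 fold 1.56). The nuclear genes of oxidative phosphorylation had a median of 0.27 with 0 of 31 past the limit, and that median was -0.20 when protein coding genes were rescaled. The 13 mitochondrially encoded genes had a median of 0.00. Cholesterol synthesis genes had a median of -0.15 with 0 of 19 past the limit, and Insig1 and Hmgcs1, targets of the sterol sensor SREBP2, had log2 folds of -0.74 and -0.57.

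Ribosomal protein genes were higher at 15 of 46 (median 0.80), and 45 of 46 had a log2 fold above 0. Rplp0 had 254 RPKM in sham and 737 at day 3 (log2 fold 1.53) and Rpl28 had 154 RPKM in sham and 418 at day 3 (log2 fold 1.44). Their many processed copies can share reads. Proteasome genes were higher at 6 of 31 (median 0.52). The immunoproteasome subunits and activator genes (Psmb8, Psmb9, Psmb10, Psme1 and Psme2) were 5 of the 6, and Psmc4 was the other. Among 14 cell death genes 7 were at least 2-fold higher (median 0.98). Bcl2a1b, an inhibitor of apoptosis in leukocytes with 49.1% of its exons shared with Gm29094, had 1.798 RPKM in sham and 19.6 at day 3 (log2 fold 2.88), and the pore-forming genes Bak1 and Bax had 5.14 RPKM in sham and 19.6 at day 3 (log2 fold 1.74) and 19.9 RPKM in sham and 48.3 at day 3 (log2 fold 1.24).

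The cytoskeleton of motile cells was higher at 21 of 33 actin and myosin regulators (median 1.22). Cotl1, which binds filamentous actin, had 32.1 RPKM in sham and 223 at day 3 (log2 fold 2.76), Pfn1 had 71.3 RPKM in sham and 251 at day 3 (log2 fold 1.80) and Actb had 546 RPKM in sham and 1331 at day 3 (log2 fold 1.28). Actb and Gapdh (333 RPKM in sham and 671 at day 3, log2 fold 1.01), often used as reference genes, were thus both past the limit. After median-of-ratios scaling they had log2 folds of 1.14 and 0.87. Of 17 annexin and S100 genes 9 were higher (median 1.21), with S100a11 at 6.36 RPKM in sham and 120.2 at day 3 (log2 fold 4.04) and S100a6 at 17.6 RPKM in sham and 201 at day 3 (log2 fold 3.44). Of 10 leukocyte integrin and adhesion genes 7 were higher (median 1.08), with Itgb5 at 12.2 RPKM in sham and 49.2 at day 3 (log2 fold 1.93) and Itgam at 1.33 RPKM in sham and 4.96 at day 3 (log2 fold 1.36), although 68.7% of the exons of Itgam are shared with Gm49368.

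Most genes of projection neurons had log2 folds below 0, and few passed the limit in the values as deposited. When protein coding genes were rescaled, the median was -0.999 for medium spiny neurons, -0.91 for presynaptic release and -0.97 for the neuronal cytoskeleton. It was -0.65 for transmitter receptors and -0.84 for voltage-gated channels. The median of all protein coding genes was then -0.23. Among 22 genes of medium spiny neurons 2 were at least 2-fold lower, 0 higher, and 20 had a log2 fold below 0 (median -0.59). Pde10a, a cyclic nucleotide phosphodiesterase gene and 1 of these 2, had 15.4 RPKM in sham, then 16.2 (4 hours), 6.04 (day 1), 7.15 (day 3) and 13.6 (day 10). Day 1 and day 3 were both lower than the other libraries. Adcy5, the striatal adenylyl cyclase gene, had 113 RPKM in sham and 63.6 at day 3 (log2 fold -0.82), and Drd1 had 7.596 RPKM in sham and 4.25 at day 3 (log2 fold -0.71). The neuropeptide gene Penk did not share this direction (log2 fold 0.13). Levels at day 1 were lower than at day 3 for Ppp1r1b (476 against 657 RPKM) and Drd1 (2.68 against 4.25), and the list median was -0.86 at day 1 and -0.20 at day 10. Interneuron genes were mixed, with 6 of 10 log2 folds above 0 and 4 below. The peptide genes Sst, Npy and Cck had 185 RPKM in sham and 235 at day 3 (log2 fold 0.34), 74.1 RPKM in sham and 118 at day 3 (log2 fold 0.66) and 55.8 RPKM in sham and 100.2 at day 3 (log2 fold 0.83). The 4 below 0 were Nos1, which marks part of the same cells (2.42 RPKM in sham and 1.02 at day 3, log2 fold -0.76), the cholinergic genes Slc18a3 and Chat (-0.33 and -0.10) and the lineage factor gene Lhx6 (-0.31). The interneuron median was 0.17 with 0 of 10 past the limit, and it was -0.25 when protein coding genes were rescaled.

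Genes of transmitter release were below sham, all but 1 within the limit in the values as deposited. Doc2b, a calcium sensor of release with 5.5% of its exons over Gm12339 on the other strand, had 8.64 RPKM in sham and 3.28 at day 3 (log2 fold -1.17), Cplx2 had 92.7 RPKM in sham and 45.98 at day 3 and the GABA-synthesising enzyme gene Gad1 had 7.31 RPKM in sham and 3.33 at day 3 (log2 fold -0.94). Abundant vesicle protein genes differed in size: Syp had 77.5 RPKM in sham and 74.5 at day 3 (log2 fold -0.06) and Vamp2 had 124 RPKM in sham and 116 at day 3 (log2 fold -0.09), while the vesicular GABA transporter gene Slc32a1 had 60.5 RPKM in sham and 35.1 at day 3 (log2 fold -0.77) and Sv2a had 29.95 RPKM in sham and 17.01 at day 3 (log2 fold -0.78). All 24 presynaptic genes had a log2 fold below 0 (median -0.52), and 1 was past the limit. The 21 glutamate and GABA receptor genes, with Shank3 at 41.8 RPKM in sham and 23.03 at day 3 (log2 fold -0.83), had a median of -0.39, and the 22 voltage-gated channel genes, with Kcnj4 at 84.8 RPKM in sham and 48.4 at day 3 (log2 fold -0.80), had a median of -0.56, each with 0 past the limit. In the neuronal cytoskeleton (median -0.61, 2 of 18 lower) Cyfip2, an actin regulator, had 27.8 RPKM in sham and 11.6 at day 3, or 0.416 times the sham level (interval 0.393 to 0.440). The neurofilament gene Nefm, which overlaps Nefl on the other strand, had 13.7 RPKM in sham and 5.93 at day 3 (log2 fold -1.09), while the tubulin-binding gene Stmn3 had 449.8 RPKM in sham and 495 at day 3 (log2 fold 0.14). Genes of injured axons were mixed (median 0.18, 2 of 16 higher). Tubb6, a tubulin gene, had 5.09 RPKM in sham, then 33.97 (day 1), 57.4 (day 3) and 6.2 (day 10). Its level was highest at day 3.

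Exon length moved with the fold across protein coding genes. The median union exon length of a list was 9700.0 bases for channels, 7648 for transmitter receptors, 4962 for presynaptic genes, 4446.5 for medium spiny neurons and 2224 for interneurons, and it was 2337 for cathepsins and 5033 for phagocytic receptors. Neuronal lists were thus not all longer than phagocyte lists. Protein coding genes were split by union exon length into 5 groups of nearly equal size. In the shortest group (51 to 2143 bases) the median log2 fold at day 3 was 0.43 and 17.4% of genes were at least 2-fold higher, and in the longest (6561 to 41155 bases) the median was -0.17 and the share 2.38%. Day 1 had the same order (0.285 to -0.224), and so did day 10 over a smaller range (0.135 to 0.001), while 4 hours did not (0.27 at both ends). After the median of genes of like length was taken off, the medium spiny neuron median was -0.57, the presynaptic -0.49, the receptor -0.24, the channel -0.52 and the cytoskeleton -0.51. The ribosomal protein median was then 0.57, oxidative phosphorylation 0.01, cathepsins 1.70 and mitotic entry 1.32. RNA integrity was not given in the sources used here, and its part in the relation with length was not tested.

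**Figure D4:**
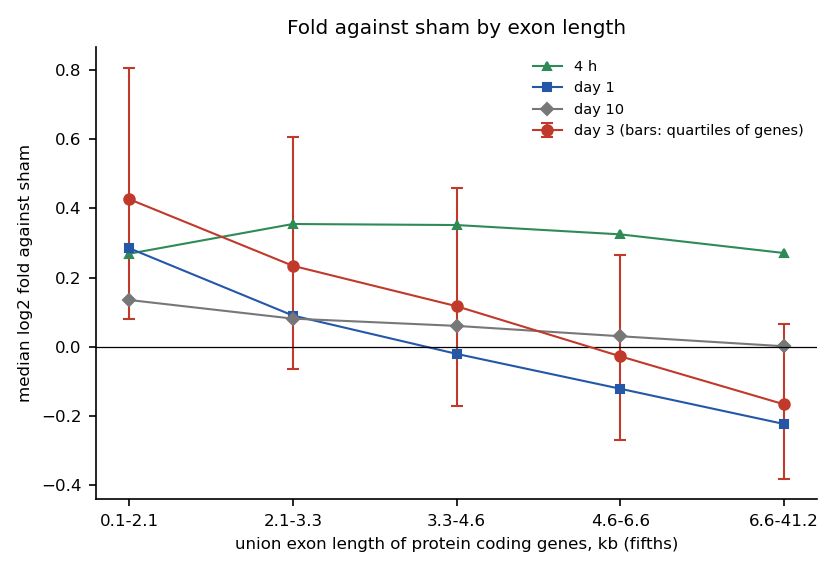
Median log2 fold against sham (vertical axis) of protein coding genes in 5 groups of union exon length in kb (horizontal axis) for the 4 times, with the quartiles of genes as bars at day 3. At day 3 the medians run from 0.43 in the shortest to -0.17 in the longest group, and at 4 hours both ends are at 0.27.

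Oligodendrocyte genes were near sham. Of 16 myelin genes 0 were past the limit (median -0.13). Mbp, a main myelin protein gene, had 611 RPKM in sham and 480.4 at day 3 (log2 fold -0.34), and Cldn11, the tight junction gene of myelin, had 65.7 RPKM in sham and 85.97 at day 3 (log2 fold 0.38). Of 9 precursor genes 0 were past the limit and 7 had a log2 fold above 0 (median 0.46), with the lineage factor genes Olig1 at 43.6 RPKM in sham and 61.6 at day 3 (log2 fold 0.49) and Sox10 at 17.7 RPKM in sham and 25.4 at day 3 (log2 fold 0.50). That median was 0.02 when protein coding genes were rescaled. Among protein coding genes with at least 5 RPKM in either library, the lowest log2 fold was that of Ttr (-1.93), the transthyretin gene of choroid plexus, with 77.4 RPKM in sham, then 729 (4 hours), 303 (day 1), 19.6 (day 3) and 0.205 (day 10). Its level differed among all 5 libraries. The other 6 genes of the ependyma and choroid plexus list lay between log2 folds of -0.59 and 0.76. Only 2 of the 7 genes, Ttr included, reached 1 RPKM in sham, and the added 1 RPKM presses folds of low genes towards 0. The list median was -0.23, and it was -1.07 with a pseudocount of 0.1 RPKM.

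**Figure D5:**
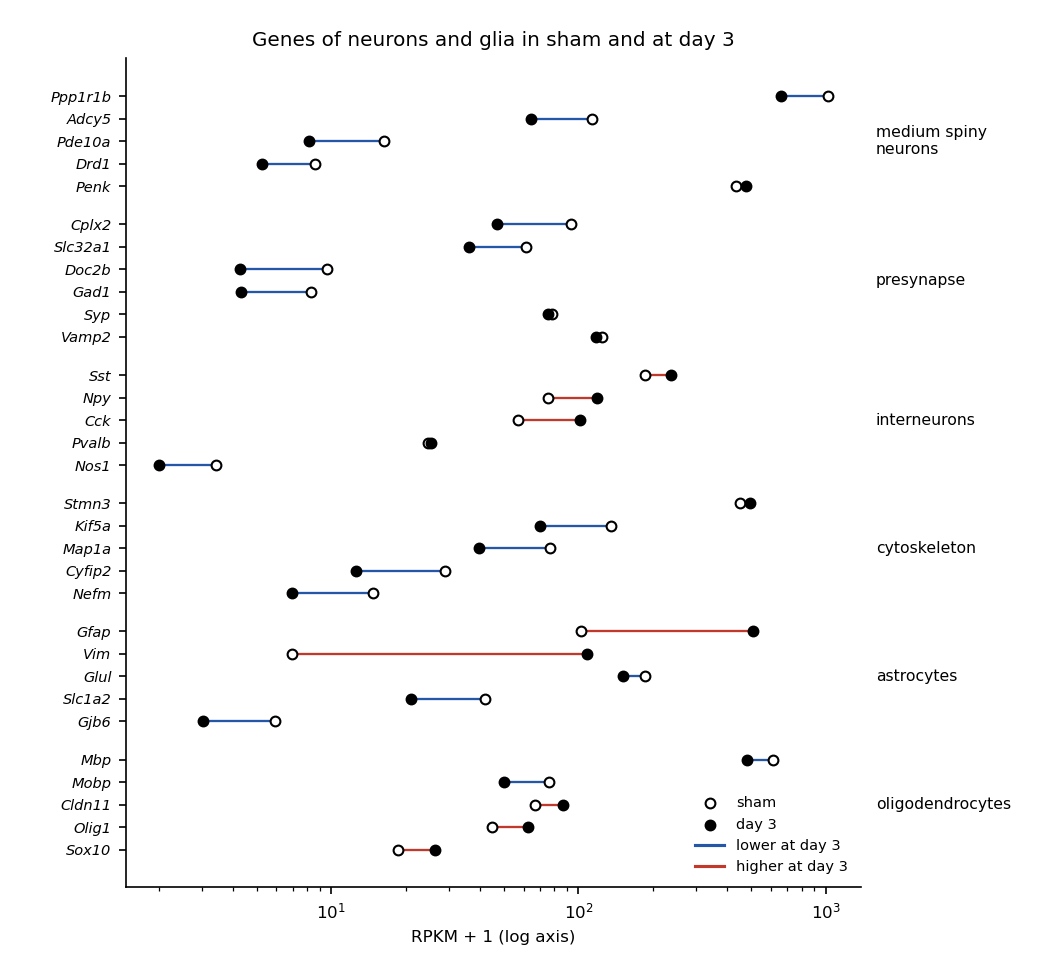
Level (RPKM + 1, log axis) of 31 genes of neurons, astrocytes and oligodendrocytes (rows) in sham (open circles) and at day 3 (filled circles), joined by a line that is red where day 3 is higher and blue where it is lower. Pde10a, Cplx2, Cyfip2 and Slc1a2 are lower at day 3, Gfap and Vim are higher, and Syp, Vamp2, Pvalb and Stmn3 have nearly the same level in both libraries.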

How the data were processed

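The authors deposited 1 table with a column of RPKM per library, and per the file headers these are RPKM. The same deposited table holds GFOLD columns, log2 fold changes that the authors' tool shrinks towards 0 at low depth, used here only as an alternative. Per the submitters' processing notes the tools were Trimmomatic 0.36, HISAT2 2.1.0 and StringTie 1.3.4d with build GRCm38, with no roles given. The counting tool, annotation version and strand setting are not given in the sources used here. Of 19221 genes 19158 matched the GENCODE annotation by identifier. RPKM times union exon length gave whole reads within 0.02 for 90.4% to 90.5% of the values tested, which gave the read total behind each library's scaling (42261788 to 48013861). Intervals (95%, exact conditional binomial) were computed on reads divided by 2, since mates of a pair are not independent, for 11394 genes.

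Values were set as log2((RPKM + 1) / (sham RPKM + 1)) for each gene that reached 1 RPKM in any of the 5 libraries, with a limit of 2-fold. Each group is 1 library, so no p-value, SD or set test was computed. There were 62 gene lists with 1188 genes, of which 950 were analysed and 81 are in more than 1 list. The comparison, its lists and their members were chosen with earlier results of these data known. Named genes were, in each list, the 8 of largest absolute log2 fold, the 4 of highest mean RPKM, members past the limit against the list's sign and defining markers, and over all genes the 20 highest and 20 lowest protein coding genes with at least 5 RPKM in either library. Alternatives were pseudocounts of 0.1 and 0.5, no floor or a floor of 5 RPKM, limits of 1.5-fold and 4-fold, median-of-ratios and trimmed-mean scaling, rescaled protein coding genes and, added after the data were seen, the authors' GFOLD values, the counting interval and centring on exon length in 20 bins. Python 3.11.15, NumPy 2.4.6, pandas 2.3.3, SciPy 1.17.1 and Matplotlib 3.10.9 were used, and the calculations were tested on simulated data. Aldoa, which has more than 1 identifier in the table, was left out. Some listed genes count in the totals but are not reported here by name.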

Additional observations from a re-analysis of the deposited data

How the results depend on the processing

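No paired analysis was possible because each group is 1 library. Beside 1156 higher and 79 lower genes, a pseudocount of 0.1 RPKM gave 1780 and 321, and 0.5 RPKM gave 146 lower genes. Median-of-ratios and trimmed-mean scaling each gave 139 lower genes, with 928 and 926 higher. Protein coding genes, 871 higher and 41 lower as deposited, gave 450 and 356 when rescaled. Limits of 1.5-fold and 4-fold gave 2833 and 228 higher genes and 672 and 1 lower. Centring on exon length, added after the data were seen, gave 786 higher and 197 lower genes. Dropping the floor could not change either count, since with a pseudocount of 1 RPKM a gene below 1 RPKM in both libraries cannot reach 2-fold. A floor of 5 RPKM gave 832 and 57, the authors' GFOLD values 1247 and 93, and requiring the counting interval of the ratio to exclude 1 gave 1012 and 62. Among 62 list medians, rescaling protein coding genes turned the sign of nuclear oxidative phosphorylation (-0.198), striatal interneurons (-0.247) and axon injury and growth (-0.128). It also turned cell cycle inhibitors and p53 targets (-0.020) and V-ATPase subunits (-0.331, from 0.049). Centring on exon length turned striatal interneurons (-0.059), T and NK cells (-0.318, from 0.099) and mitochondrially encoded genes (-0.316, from 0.002). Median-of-ratios scaling turned the V-ATPase and mitochondrially encoded medians (-0.075 and -0.14). Each rescaling divides all day 3 values by 1 factor, 0.14 on the log2 scale for median-of-ratios and 0.48 for protein coding genes. After the latter the median of all protein coding genes was -0.229, against which the rescaled list medians are to be read. Why the libraries differ by these factors was not tested, nor was the cause of the shifts under length centring. Without replicates, differences between animals cannot be told apart from differences between conditions. For genes below 1 RPKM in both libraries the added 1 RPKM keeps the log2 fold small, and short ones among them also carry few reads.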

Other observations

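Several of the protein coding genes with the largest differences belong to no list above. Cdca3, which triggers mitotic entry, had 0.334 RPKM in sham, then 0.243 (4 hours), 0.196 (day 1), 12.5 (day 3) and 0.792 (day 10), so day 3 stood above the other 4 libraries. Emp3, a membrane protein gene, had 1.41 RPKM in sham, then 0.955 (4 hours), 5.26 (day 1), 24.4 (day 3) and 6.09 (day 10), and Cd52, a small surface glycoprotein of leukocytes, had 5.04 RPKM in sham, then 2.24 (4 hours), 12.3 (day 1), 68.1 (day 3) and 64.4 (day 10). Of the exons of Cd52, 14.5% overlap Crybg2 on the other strand. On the low side, App, the amyloid precursor protein gene, had 72.9 RPKM in sham, then 110.3 (4 hours), 41.3 (day 1), 33.4 (day 3) and 59.7 (day 10), and Sort1, the sortilin gene, had 14.6 RPKM in sham, then 23.3 (4 hours), 8.31 (day 1), 6.08 (day 3) and 11.4 (day 10). Atp2b2, a calcium pump gene of neuronal membranes, had 23.9 RPKM in sham, then 32.3 (4 hours), 10.3 (day 1), 10.3 (day 3) and 18.4 (day 10). These 3 were above sham at 4 hours and below it at day 1 and day 3. Agt, the angiotensinogen gene, which astrocytes make, had 5.51 RPKM in sham, then 5.62 (4 hours), 3.15 (day 1), 2.002 (day 3) and 4.24 (day 10), and Sparcl1, a matrix protein gene of astrocytes, had 61.7 RPKM in sham, then 65.6 (4 hours), 42.4 (day 1), 28.3 (day 3) and 69.5 (day 10). Both had their lowest level at day 3.

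Among annotated gene classes, 871 of 10089 protein coding genes (8.63%) were at least 2-fold higher. The share was 123 of 1034 processed pseudogenes (11.9%), 12 of 215 long intergenic RNAs (5.58%) and 64 of 218 loci annotated as microRNAs (29.4%), of which another 13 were lower. The microRNA loci are hairpin-sized and many lie inside longer transcripts, so a value there does not measure the mature microRNA. In the authors' deposited table, 3592 of the analysed genes had a GFOLD of 0. Of the genes higher by size 1014 had a GFOLD of at least 1, and of those lower by size 42 had a GFOLD of at most -1.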
